A study of Mus musculus with 8 samples.

Results

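The genes described here encode the machinery of the lysosome as phagocytes use it: 35 genes for lysosomal hydrolases, membrane proteins, proton pump subunits and regulators, given as a fixed list of symbols. All 35 were found among the 38293 gene identifiers of the count table, and all 35 passed the filter on low counts that left 13972 genes to test. They comprise 11 proteases, 6 glycosidases, 5 proteins of lipid handling, 7 membrane proteins, 3 subunits of the proton pump and 3 regulators. The tissue was the left ventricle of C57BL/6J mice, 3 days after an ischemia-reperfusion injury, in which blood flow to part of the heart muscle is stopped and then restored. All mice carried an UPy-PEG hydrogel, a supramolecular polymer gel that serves as a drug depot, placed by 2 injections of 10 µl into the heart muscle. In the antimiR-195 group, 4 libraries, the gel held antimiR-195, an oligonucleotide that inhibits the microRNA miR-195. In the hydrogel group, 4 libraries, the gel held no drug. Neither group lacked the injury or the gel, so neither shows what these did to the genes. The labels do not state that the 8 libraries came from 8 animals, so the tests measure the spread between libraries, which may be technical in part.

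Lysosomes are acidic compartments in which a proton pump keeps the pH low and hydrolases break down proteins, glycans and lipids delivered by phagocytosis, endocytosis and autophagy. Nearly every cell has them, and macrophages, which take up dead cardiomyocytes and debris after a cardiac injury, are rich in them. The transcription factors TFEB and TFE3 raise many lysosomal genes together, and in a nutrient-rich cell they are held in the cytoplasm by phosphorylation. In whole ventricle, fewer cells of a type and less RNA per cell cannot be told apart.

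The libraries held 16872968 to 22751753 gene counts, of which the 35 genes took 0.837% to 1.10%. Levels are given as CPM, counts scaled to the library's total and its TMM factor, for comparisons between libraries, and as the deposited RPKM, which also divides by gene length, for comparisons between genes. AntimiR-195 replicate 2 stood apart, with correlations of log2 CPM across genes of 0.944 to 0.970 with the other libraries, against 0.978 to 0.991 among those. The deviation of a library from the others was correlated with gene length in each of the 8, with Spearman's rho across 13972 genes between -0.45 in antimiR-195 replicate 2 and 0.53 in antimiR-195 replicate 3. Across the 35 the rho was -0.44 in antimiR-195 replicate 2, within a range of -0.46 in hydrogel replicate 1 to 0.39 in antimiR-195 replicate 3; these describe genes, which are not independent replicates. The mature miR-195 itself was not measured by these polyadenylated RNA libraries. Marker genes of each cell type were detected, and no marker list held a gene at 0 in all libraries. The 12 macrophage markers summed to 1491 to 2661 CPM in antimiR-195 libraries, against 1771 to 2384 CPM in hydrogel libraries, and the 9 cardiomyocyte markers to 74608 to 79782 CPM, against 69474 to 81592 CPM. Sums of the other lists overlapped: 588 to 1092 CPM, against 570 to 910 CPM, for lipid-laden macrophages, 50.01 to 73.4 against 52.02 to 89.97 CPM for monocytes, and 23.3 to 69.1 against 25.99 to 31.8 CPM for neutrophils. For fibroblasts they were 6717 to 8500 CPM with antimiR-195, against 5427 to 8530 CPM without, and for endothelial cells 526 to 728 CPM, against 544 to 723 CPM. The 8 markers of resident macrophages summed to 247 to 272 CPM in antimiR-195 libraries, against 287 to 338 CPM in hydrogel libraries, with no overlap. Of these 8 genes, 1 was lower in every antimiR-195 library, against 0.544% of all genes. In edgeR's test 2 of them had an unadjusted p under 0.05, against 1.27% of all genes. After adjustment 0 were called, with a smallest adjusted p of 0.9999 in that test, and the sums were not tested.

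The first comparison asked whether lysosomal genes differed between ventricles with antimiR-195 in the gel and those with gel alone. No difference exceeded the spread between libraries in the test. The genes lay on both sides of zero, 18 with a higher fitted level (51.4%, against 52.4% of all genes tested) and 17 with a lower one, and their median log2 fold change was 0.00, against 0.01 over all 13972 genes. The largest fitted increase was that of Ctsk, the collagen-degrading cathepsin K, at 0.23 ± 0.20 (log2 fold change ± SE), and the largest fitted decrease that of Psap, the saposin precursor, at -0.23 ± 0.15. Cd68, Ctss and Laptm5, which are abundant in macrophages, had fold changes between -0.07 and 0.04.

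By edgeR's quasi-likelihood test, 0 of the 35 genes had an adjusted p under 0.05, and across all genes 0 of 13972 were called (0%); the adjusted p was 0.9999 for each of the 35. At an unadjusted p under 0.05 there were again 0 of the 35, against 178 genes (1.27%) overall. The CPM of the groups did not overlap for 1 of the 35, Lamp1, against 150 genes (1.07%) overall. No member had an absolute log2 fold change of 0.25 or more, a size that 15.5% of all genes reached. The largest absolute value of the 35, 0.23, lay just under that size. The median SE was 0.143 for the 35 and 0.174 over all genes, so these shares were not compared at like precision. The 95% intervals were wide enough to leave room for moderate changes: their median half-width was 0.32 on the log2 scale, and they reached from -0.80 for Atp6v0d2 to 0.76 for Ctsz.

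**Figure D1:**
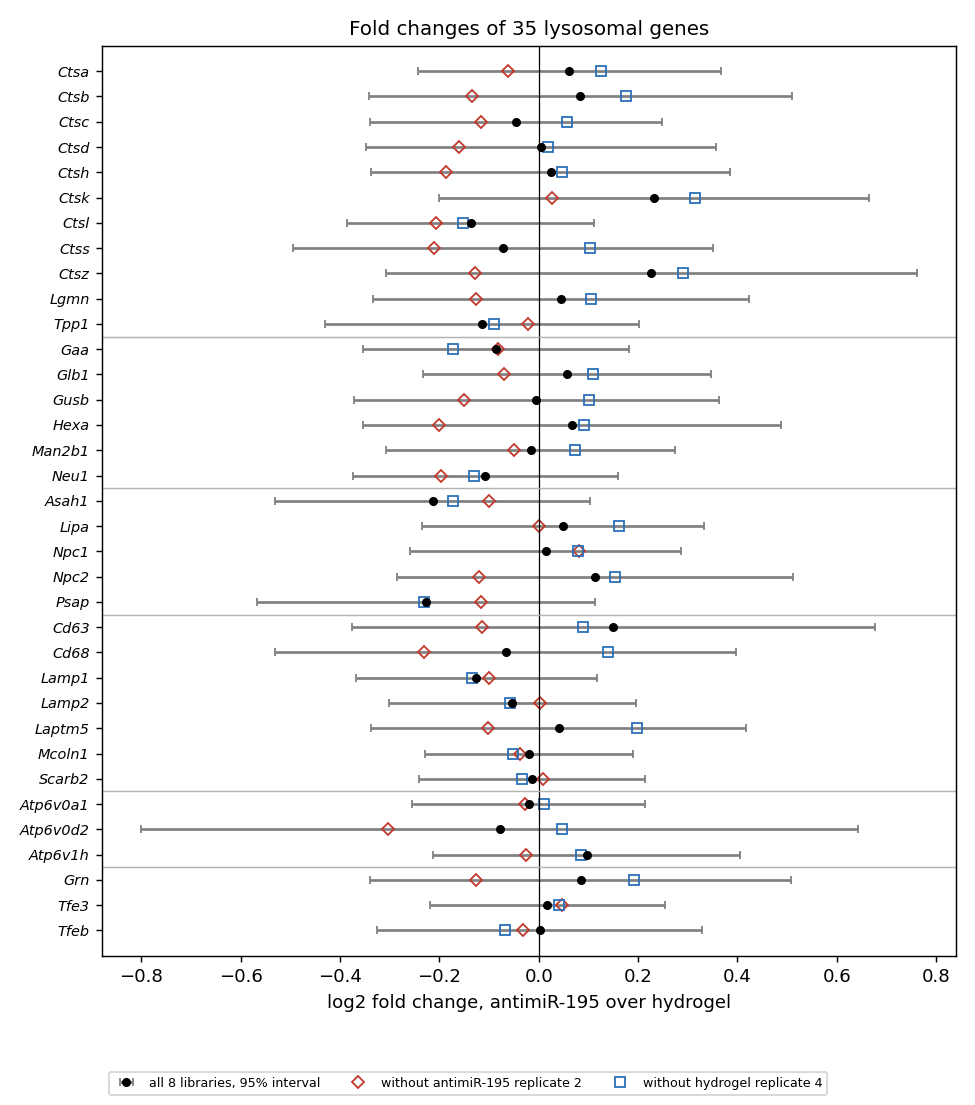
Log2 fold change of each gene, antimiR-195 over hydrogel, with genes grouped by role down the page. Black points are all 8 libraries with their 95% intervals, red diamonds the fit without antimiR-195 replicate 2 and blue squares the fit without hydrogel replicate 4; every interval crosses 0, and leaving out antimiR-195 replicate 2 moves most proteases to the left of it.

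The fold changes turned on single libraries. Without antimiR-195 replicate 2, the median of the 35 was -0.10 and 6 had a higher mean with antimiR-195. Without hydrogel replicate 4, the median was 0.07 and 24 had a higher mean. With both left out, a setting chosen after seeing the data, the median was -0.03 and 10 had a higher mean, and 0 of 13994 genes were called. Without antimiR-195 replicate 3 alone, the median was 0.05 and 20 had a higher mean. AntimiR-195 replicate 2 and hydrogel replicate 4 also had the highest macrophage marker sums, 2661 and 2384 CPM, and the part of these markers in the result was not tested.

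Per length of transcript, the genes covered a wide range of expression in the ventricle. At the top stood Ctsd, which encodes the aspartic protease cathepsin D, at 744 ± 168 RPKM with antimiR-195 and 726 ± 64.1 RPKM without it (mean ± SD, n = 4 each). Psap followed at 557 ± 91.8 RPKM with antimiR-195 and 642 ± 44.3 RPKM without it, and Ctsb, a cysteine protease, at 334 ± 97.2 RPKM with antimiR-195 and 309 ± 56.3 RPKM without it. These levels placed Ctsd above 99.6% of the genes tested. Lamp1 and Cd63, both membrane proteins, came next, at 269 ± 10.4 and 288 ± 15.9 RPKM for Lamp1 and 290.0 ± 111 and 255 ± 50.7 RPKM for Cd63, in each case with and without antimiR-195. The 4 lowest genes were both transcription factors, the cholesterol transporter Npc1 and 1 pump subunit. Tfeb had 5.65 ± 0.6900 RPKM with antimiR-195 and 5.52 ± 0.862 RPKM without it, Npc1 had 4.33 ± 0.418 RPKM with antimiR-195 and 4.22 ± 0.596 RPKM without it, and Tfe3 had 2.902 ± 0.176 RPKM with antimiR-195 and 2.82 ± 0.2901 RPKM without it. Grn, the third regulator, lay far above them, at 89.7 ± 25.5 RPKM with antimiR-195 and 83.2 ± 17.7 RPKM without it. Atp6v0d2, the d2 subunit isoform known from osteoclasts and macrophages, was the lowest at 1.02 ± 0.484 RPKM with antimiR-195 and 1.06 ± 0.2501 RPKM without it, above 18.7% of the genes tested. Neighbours in this order often differed by less than the spread between libraries, as Ctss and Ctsl did, at 157 ± 33.3 and 163 ± 46.3 RPKM and 146 ± 16.7 and 157 ± 8.47 RPKM with and without antimiR-195.

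**Figure D2:**
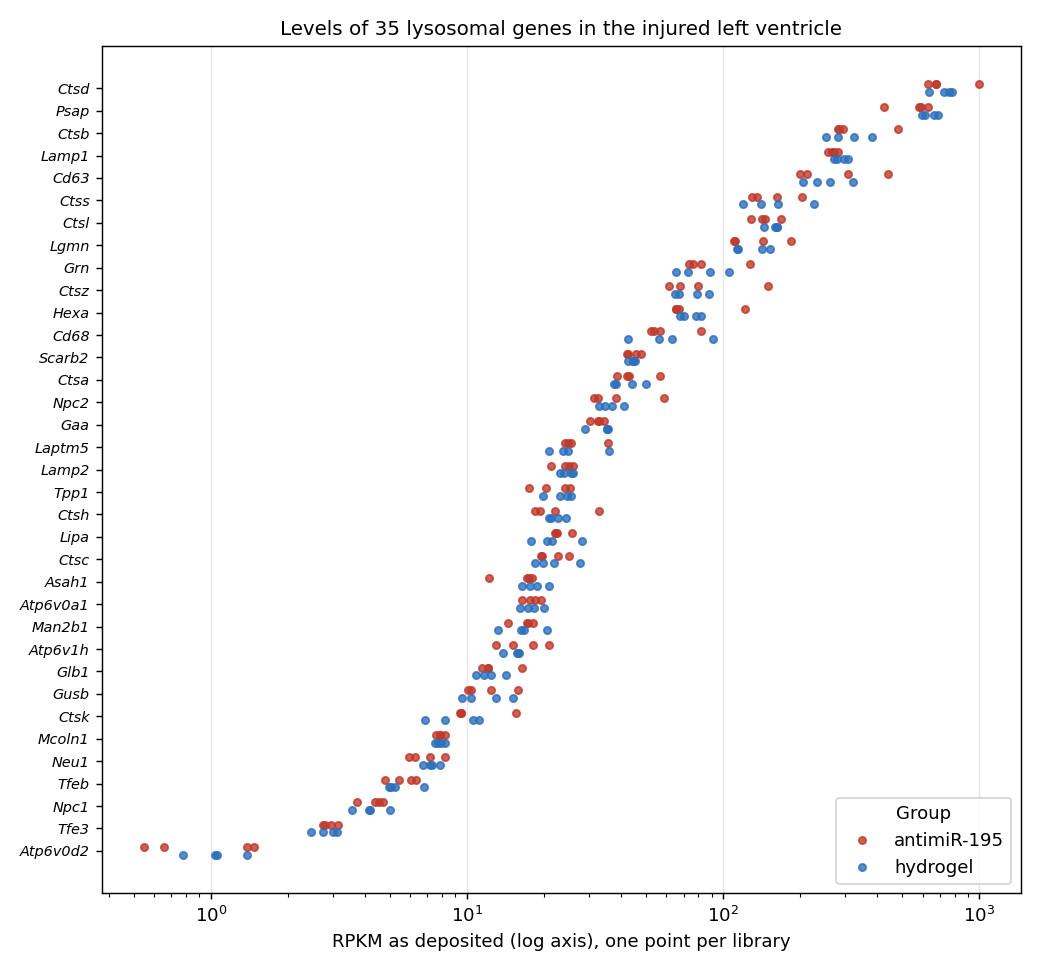
Deposited RPKM of the 35 genes on a log axis, one point per library, antimiR-195 in red and hydrogel in blue, genes ordered by level. The genes run from Ctsd, with means of 744 and 726 RPKM with and without antimiR-195, down to Atp6v0d2, with 1.02 and 1.06 RPKM, and the colours are mixed in every row.

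Among the 11 proteases, 7 had a higher and 4 a lower mean with antimiR-195, with a median log2 fold change of 0.02. Ctsb (chr14:63122462-63145923 in GRCm38, plus strand) had 1360.0, 2197, 1344 and 1355 CPM in antimiR-195 replicates 1 to 4, against 1527, 1364, 1253 and 1759 CPM in hydrogel replicates 1 to 4. Replicate 2 was the highest antimiR-195 library by far, the other antimiR-195 libraries lay within a narrow band, and the hydrogel libraries spread on both sides of that band. This gave a log2 fold change of 0.08 ± 0.19, with a 95% interval of -0.34 to 0.51; it was -0.13 without antimiR-195 replicate 2.

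Ctsd (chr7:142375911-142388038, minus strand) had 1663, 2420.1, 1603 and 1729 CPM in antimiR-195 replicates 1 to 4, against 1908, 1639, 1931 and 1914 CPM in hydrogel replicates 1 to 4. Again antimiR-195 replicate 2 was highest, the other antimiR-195 libraries lay below all hydrogel libraries but replicate 2, and the groups overlapped. Ctsd thus had a log2 fold change of 0.00 ± 0.16, and -0.16 without antimiR-195 replicate 2. Ctsl, the cysteine protease cathepsin L, gave 281, 320.4, 283 and 256 CPM in antimiR-195 replicates 1 to 4, against 319, 328, 299.9 and 306 CPM in hydrogel replicates 1 to 4. Of the antimiR-195 libraries only replicate 2 reached the hydrogel range, while the others lay below every hydrogel library. Its log2 fold change was -0.14 ± 0.11, with a 95% interval of -0.39 to 0.11.

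For Ctss, a cathepsin of antigen-presenting cells that stays active at neutral pH, the values were 215, 266, 178 and 186 CPM in antimiR-195 replicates 1 to 4, against 222, 196, 171 and 299.6 CPM in hydrogel replicates 1 to 4. The highest library was hydrogel replicate 4, followed by antimiR-195 replicate 2, and hydrogel replicate 3 was lowest. A log2 fold change of -0.07 ± 0.19 resulted, at -0.21 without antimiR-195 replicate 2 and 0.10 without hydrogel replicate 4. Ctsk, known for collagen breakdown in osteoclasts, was the least abundant protease per length, with 13.7, 22.2, 14.2 and 14.1 CPM in antimiR-195 replicates 1 to 4, against 15.7, 12.4, 10.6 and 16.04 CPM in hydrogel replicates 1 to 4. All antimiR-195 libraries but replicate 2 lay inside the hydrogel range. The increase of 0.23 ± 0.20 shrank to 0.03 without antimiR-195 replicate 2.

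Ctsz, which encodes the carboxypeptidase cathepsin Z, had the widest spread of the proteases, with 112, 208, 88.99 and 98.8 CPM in antimiR-195 replicates 1 to 4, against 113, 99.3, 98.05 and 123 CPM in hydrogel replicates 1 to 4. AntimiR-195 replicate 2 was 2.10 times the median of the other 3 antimiR-195 libraries, and all other libraries overlapped. Over all libraries the log2 fold change was 0.23 ± 0.24, and -0.13 without that library. Lgmn, the asparaginyl endopeptidase legumain that cleaves and activates cathepsins, had 325, 414, 258 and 261 CPM in antimiR-195 replicates 1 to 4, against 328, 268, 278 and 345 CPM in hydrogel replicates 1 to 4. Its highest library was antimiR-195 replicate 2, with hydrogel replicates 4 and 1 next, and the groups overlapped throughout. The fitted log2 fold change of Lgmn was 0.04 ± 0.17.

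Tpp1, a tripeptidyl peptidase, ran the other way, with 69.5, 59.1, 85.1 and 88.96 CPM in antimiR-195 replicates 1 to 4, against 80.5, 87.9, 72.5 and 86.6 CPM in hydrogel replicates 1 to 4. Here antimiR-195 replicate 2 was the lowest library and antimiR-195 replicate 4 the highest, so that the antimiR-195 group enclosed the hydrogel group. Its fitted log2 fold change was -0.11 ± 0.14. The remaining proteases were Ctsa, the serine carboxypeptidase that also protects beta-galactosidase and sialidase, at 0.06 ± 0.14; Ctsc, the dipeptidyl peptidase that activates granule proteases, at -0.05 ± 0.13; and Ctsh, an aminopeptidase, at 0.02 ± 0.16. Ctsa averaged 210.1 ± 32.98 CPM with antimiR-195 and 201 ± 20.9 CPM without it. Ctsc averaged 124 ± 12.2 CPM with antimiR-195 and 128 ± 19.4 CPM without it, and Ctsh 78.8 ± 20.9 CPM with antimiR-195 and 77.5 ± 3.09 CPM without it (SD, n = 4 each).

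**Figure D3:**
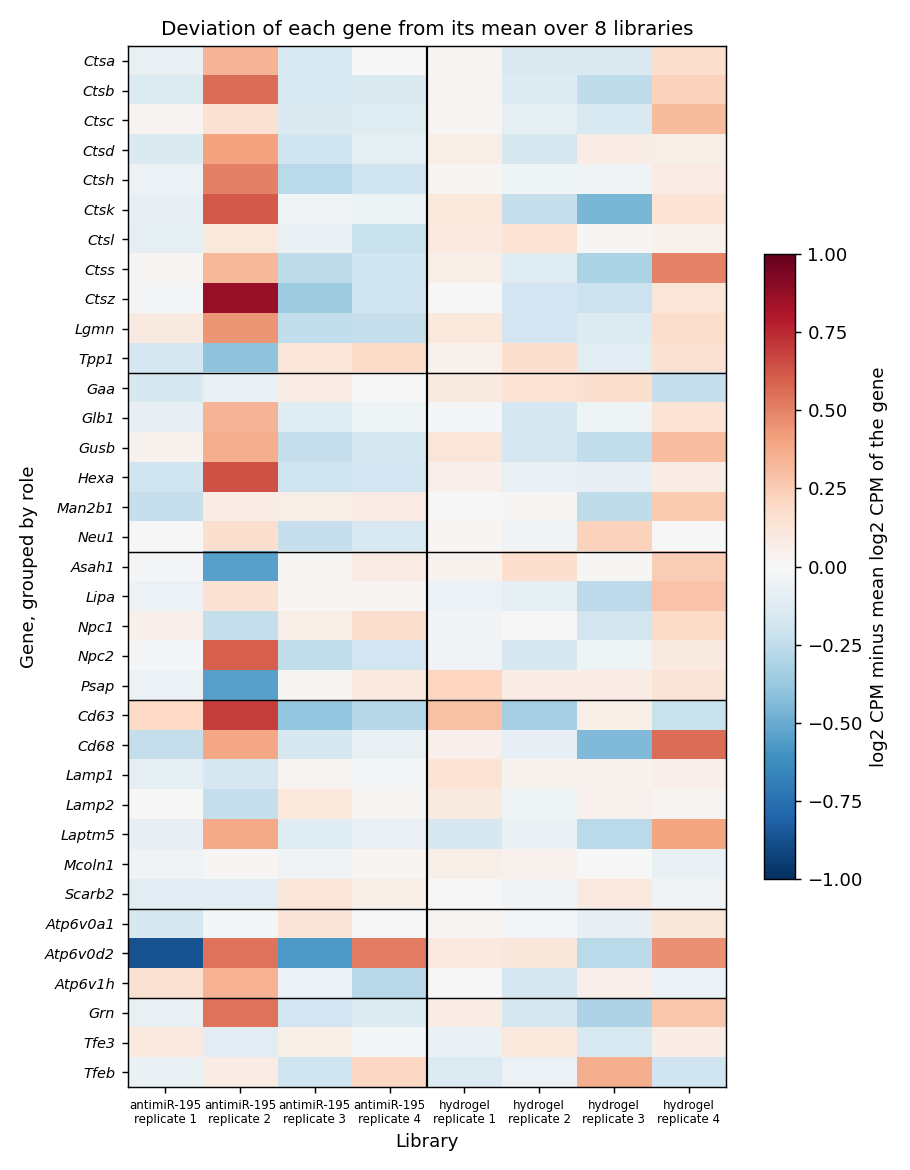
Deviation of each gene's log2 CPM from its mean over the 8 libraries, genes in rows grouped by role and libraries in columns, with red above and blue below the mean. The columns of antimiR-195 replicate 2 and hydrogel replicate 4 are red for most proteases, while Psap, Asah1 and Tpp1 are blue in antimiR-195 replicate 2.

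The 6 glycosidases, which take sugars off glycans, glycoproteins and glycolipids, held 2 genes with a higher and 4 with a lower mean, and a median log2 fold change of -0.01. Gaa, the acid alpha-glucosidase that breaks down lysosomal glycogen and is mutated in Pompe disease, had 142, 149, 166 and 158 CPM in antimiR-195 replicates 1 to 4, against 168, 174, 176 and 135 CPM in hydrogel replicates 1 to 4. Hydrogel replicates 1 to 3 lay above every antimiR-195 library, and hydrogel replicate 4 below all of them. For Gaa the fold change was -0.09 ± 0.12 on the log2 scale, and -0.17 without hydrogel replicate 4. Neu1, the lysosomal sialidase, had 26.2, 29.6, 22.4 and 23.7 CPM in antimiR-195 replicates 1 to 4, against 26.8, 25.8, 30.8 and 26.5 CPM in hydrogel replicates 1 to 4. Its extremes were antimiR-195 replicate 3 at the low end and hydrogel replicate 3 at the high end, with overlap between. A log2 fold change of -0.11 ± 0.12 was fitted.

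Hexa, the alpha subunit of beta-hexosaminidase, averaged 147 ± 47.97 CPM with antimiR-195 and 140.3 ± 7.79 CPM without it (SD, n = 4 each). The large SD came from antimiR-195 replicate 2, at 1.78 times the median of the other 3. Glb1, the beta-galactosidase, and Gusb, the beta-glucuronidase, had log2 fold changes of 0.06 ± 0.13 and 0.00 ± 0.17. Man2b1, an alpha-mannosidase, had -0.02 ± 0.13.

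The 5 genes of lipid handling included both of the smallest p-values of the 35, with unadjusted edgeR p of 0.165 for Asah1 and 0.169 for Psap. Psap encodes prosaposin, whose saposin fragments present sphingolipids to their hydrolases. It had 1565, 1121, 1644 and 1749.8 CPM in antimiR-195 replicates 1 to 4, against 1891, 1723, 1721 and 1782 CPM in hydrogel replicates 1 to 4. AntimiR-195 replicate 2 was lowest, replicates 1 and 3 also lay below every hydrogel library, and replicate 4 fell inside the hydrogel range. Psap had a log2 fold change of -0.23 ± 0.15, with a 95% interval of -0.57 to 0.11; without antimiR-195 replicate 2 it was -0.12.

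Asah1, the acid ceramidase, had 57.6, 39.8, 58.7 and 61.6 CPM in antimiR-195 replicates 1 to 4, against 59.5, 65.2, 58.6 and 69.05 CPM in hydrogel replicates 1 to 4. Its lowest library was antimiR-195 replicate 2, at 0.679 times the median of the other 3, and those overlapped the hydrogel libraries. The log2 fold change of Asah1 was -0.21 ± 0.14, and -0.10 without antimiR-195 replicate 2. Lipa, the acid lipase that frees cholesterol from its esters, had 0.05 ± 0.13. Npc1 and Npc2, which pass that cholesterol out of the lysosome, had 0.01 ± 0.12 and 0.11 ± 0.18. The pair parted in antimiR-195 replicate 2, which held 38.6 CPM of Npc1, its lowest library, and 185 CPM of Npc2, its highest.

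Among the 7 membrane proteins, 2 had a higher and 5 a lower mean, with a median log2 fold change of -0.02. Lamp1 (chr8:13159161-13175338, plus strand), the most abundant glycoprotein of the lysosomal membrane, had 587, 558, 640.0 and 620.0 CPM in antimiR-195 replicates 1 to 4, against 689, 642, 644 and 649 CPM in hydrogel replicates 1 to 4. All antimiR-195 libraries lay below all hydrogel libraries, by a gap of under 3 CPM between antimiR-195 replicate 3 and hydrogel replicate 2. The log2 fold change was -0.13 ± 0.11, with a 95% interval of -0.37 to 0.12, and the test called no difference. Of all genes, 0.544% were lower in every antimiR-195 library, and on the scale of the deposited RPKM Lamp1 overlapped, at 256 to 281 RPKM in antimiR-195 libraries, against 272 to 306 RPKM in hydrogel libraries.

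Lamp2, which serves the fusion of autophagosomes with lysosomes, had 233, 197, 250.2 and 234 CPM in antimiR-195 replicates 1 to 4, against 248, 225, 239 and 237 CPM in hydrogel replicates 1 to 4. AntimiR-195 libraries were both the lowest, replicate 2, and the highest, replicate 3. Its log2 fold change was -0.05 ± 0.11. Cd68, a macrosialin found mainly in macrophages, had 64.4, 99.2, 68.05 and 72.2 CPM in antimiR-195 replicates 1 to 4, against 78.9, 71.98, 55.9 and 112 CPM in hydrogel replicates 1 to 4. Hydrogel replicate 4 and antimiR-195 replicate 2 stood above the rest and hydrogel replicate 3 below, so that hydrogel libraries were at both ends. Cd68 had a fold change on the log2 scale of -0.07 ± 0.21, at -0.23 without antimiR-195 replicate 2 and 0.14 without hydrogel replicate 4.

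Laptm5, a membrane protein of blood cell lysosomes, had a log2 fold change of 0.04 ± 0.17. Cd63, a tetraspanin of late endosomes and secretory lysosomes, averaged 295 ± 106 CPM with antimiR-195 and 265 ± 52.5 CPM without it (SD, n = 4 each), a log2 fold change of 0.15 ± 0.24. Mcoln1, a calcium channel of the lysosomal membrane, was the steadiest of the 35, its highest library 1.096 times its lowest, with a log2 fold change of -0.02 ± 0.09. Scarb2, the receptor that carries glucocerebrosidase to lysosomes, was close to it, with a ratio of 1.17 and a log2 fold change of -0.01 ± 0.10. Over the 35, the median of this ratio was 1.51, against 1.68 over all genes tested.

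The 3 pump subunits differed widely in level. Atp6v0d2, which takes the place of the d1 isoform in osteoclasts and in macrophages, had 1.46, 3.88, 1.795 and 3.82 CPM in antimiR-195 replicates 1 to 4, against 2.86, 2.89, 2.22 and 3.66 CPM in hydrogel replicates 1 to 4. The antimiR-195 libraries fell into a low pair, replicates 1 and 3, and a high pair, replicates 2 and 4, with the hydrogel libraries between. With the fewest counts of the 35 and a highest library 2.67 times the lowest, its log2 fold change of -0.08 ± 0.33 had the widest interval, -0.80 to 0.64. Atp6v0a1, a membrane subunit of the pump, had -0.02 ± 0.11, and Atp6v1h, a subunit of its cytosolic part, 0.10 ± 0.14.

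All 3 regulators had means slightly higher with antimiR-195, with log2 fold changes of 0.08 or less. Grn, the progranulin precursor of granulins found in lysosomes, had 279, 428, 257 and 267 CPM in antimiR-195 replicates 1 to 4, against 309, 260.1, 238 and 355 CPM in hydrogel replicates 1 to 4. AntimiR-195 replicate 2 was highest, hydrogel replicate 4 next and hydrogel replicate 3 lowest. The log2 fold change was 0.08 ± 0.19, and -0.13 without antimiR-195 replicate 2. Tfeb had 29.98, 33.2, 27.5 and 36.4 CPM in antimiR-195 replicates 1 to 4, against 28.7, 30.3, 40.5 and 27.4 CPM in hydrogel replicates 1 to 4. Hydrogel replicate 3 held the highest level and hydrogel replicate 4 the lowest, so the hydrogel group enclosed the antimiR-195 group. Tfe3 had 28.4, 24.5, 27.5 and 26.2 CPM in antimiR-195 replicates 1 to 4, against 25.2, 28.4, 23.8 and 27.9 CPM in hydrogel replicates 1 to 4. These libraries overlapped within a narrow range. The log2 fold changes were 0.00 ± 0.15 for Tfeb and 0.02 ± 0.11 for Tfe3. Activity of these factors depends on their place in the cell, which mRNA does not measure.

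Counts for 11 of the 35 are uncertain, since exons of another gene overlap theirs and the strand setting of the counting is not given in the sources used here. These are Ctsa, Ctsb, Ctsd, Ctsl, Ctsz, Glb1, Hexa, Npc1, Lamp1, Atp6v1h and Grn. In 9 of them the other gene lies on the opposite strand, and in 3 on the same strand.

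Single libraries held the highest or lowest level of many of the genes. AntimiR-195 replicate 2 was the highest library for 15 of the 35 (42.9%, against 30.8% of all genes tested) and the lowest for 6 (17.1%, against 33.1%). Hydrogel replicate 4 was the highest for 8 (22.9%, against 8.82% of all genes), and hydrogel replicate 3 the lowest for 11 (31.4%, against 13.04%). The 15 genes highest in antimiR-195 replicate 2 included 7 proteases and 3 glycosidases, and the 6 lowest there were Psap, Asah1, Tpp1, Npc1, Lamp1 and Lamp2. The summed CPM of the 11 proteases was 6414 in antimiR-195 replicate 2 and 4216 to 4434 in the other antimiR-195 libraries, against 5315 in hydrogel replicate 4 and 4371 to 4925 in the other hydrogel libraries. For the 5 lipid genes antimiR-195 replicate 2 had the lowest sum, 1458 CPM, with 1855 to 2036 CPM in the other antimiR-195 libraries, against 2114 CPM in hydrogel replicate 4 and 1993 to 2179 CPM in the other hydrogel libraries. Psap made up most of that sum, at 1121 CPM in antimiR-195 replicate 2, whereas Npc2 was highest and Lipa second highest in that library.

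A further comparison asked which of the genes moved with the level of 12 macrophage markers across the 8 libraries. None passed an adjustment over all genes. The correlations over 0.8 that many of them had before adjustment were smaller without the 2 libraries highest in the markers. Pearson's r of log2 CPM against the mean log2 CPM of 12 macrophage markers, none of them among the 35, was positive for 24 of the 35 (against 48.6% of all genes) and ranged from -0.70 for Lamp2 to 0.93 for Laptm5. It was above 0.8 for 13 genes (37.1%), against 2.04% of the 13960 genes tested. At an unadjusted exact permutation p under 0.05, 18 of the 35 had a positive r (51.4%, against 5.53% of all genes) and 0 a negative one (against 7.04%). With p-values adjusted over all 13960 genes, 0 genes passed 0.05, and the smallest adjusted p was 0.231. The 12 markers do not stand for all macrophages. In antimiR-195 replicate 2 they summed highest, at 2661 CPM, while the 8 resident macrophage markers summed lowest, at 247 CPM. In hydrogel replicate 4 the resident sum was the highest of the 8 libraries, at 338 CPM.

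Laptm5 had r = 0.93 (two-sided exact permutation p = 0.00915; adjusted over all genes, 0.311) and Spearman's rho = 0.83 (exact permutation p = 0.0154). For Ctsa, r was 0.93 (exact permutation p = 0.00156; adjusted, 0.303) and rho 0.88 (exact permutation p = 0.00724). Ctsb followed with r = 0.91 (exact permutation p = 0.00303; adjusted, 0.304) and rho = 0.81 (exact permutation p = 0.0218). Those 3 genes were higher in the libraries with more of the markers, without passing the adjustment. Gene length also went with the deviation of antimiR-195 replicate 2 across the 35 (Spearman's rho -0.44). The part of length in these correlations was not tested. Cd68 had r = 0.90 (exact permutation p = 0.00764; adjusted, 0.305) and rho = 0.83 (exact permutation p = 0.0154). Psap had a negative r of -0.51 and a rho of 0.12 (exact permutation p = 0.214 and 0.793), and Lamp2 had -0.70 and -0.67 (exact permutation p = 0.0513 and 0.0831).

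The marker mean was 6.62 in antimiR-195 replicate 2 and 6.56 in hydrogel replicate 4, and 5.99 to 6.21 on the log2 scale in the other 6 libraries. Over those 6, r was 0.27 for Laptm5, 0.59 for Ctsa, 0.40 for Ctsb and 0.49 for Cd68, with exact permutation p of 0.581, 0.229, 0.347 and 0.336 (the smallest p that 6 libraries allow is 0.00278). Leaving out antimiR-195 replicate 2 and hydrogel replicate 4 also narrowed the range of the marker mean, which by itself tends to lower r. The smaller r over 6 libraries therefore cannot show whether the relation depends on those 2. Over the 6 libraries 0 of the 35 had an unadjusted p under 0.05 in the positive direction, against 1.07% of all genes. The sign was positive for 29 of the 35 (82.9%, against 50.4% of all genes), and 1 gene (2.86%) had r above 0.8, against 1.29% of all genes. That gene was Mcoln1, at 0.82, with an r of -0.16 over 8 libraries. With any 1 of the 8 libraries left out, the lowest r was 0.89 for Laptm5, 0.87 for Ctsa, 0.86 for Ctsb and 0.85 for Cd68. For Lgmn, r was 0.80 over 8 libraries and as low as 0.60 with 1 left out. Leaving out 1 library always keeps antimiR-195 replicate 2 or hydrogel replicate 4, so it cannot show whether r depends on the pair. Over the 6 libraries without that pair Psap changed sign, to 0.58, and Lamp2 stayed negative, at -0.58 (exact permutation p = 0.228 and 0.231). The sign also turned from negative to positive for Asah1, Mcoln1, Tpp1, Lamp1, Gaa, Npc1 and Tfeb. It turned from positive to negative for Lipa, Atp6v0a1 and Atp6v1h. For Atp6v0d2, r over the 6 libraries was 0.77 (exact permutation p = 0.0639).

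**Figure D4:**
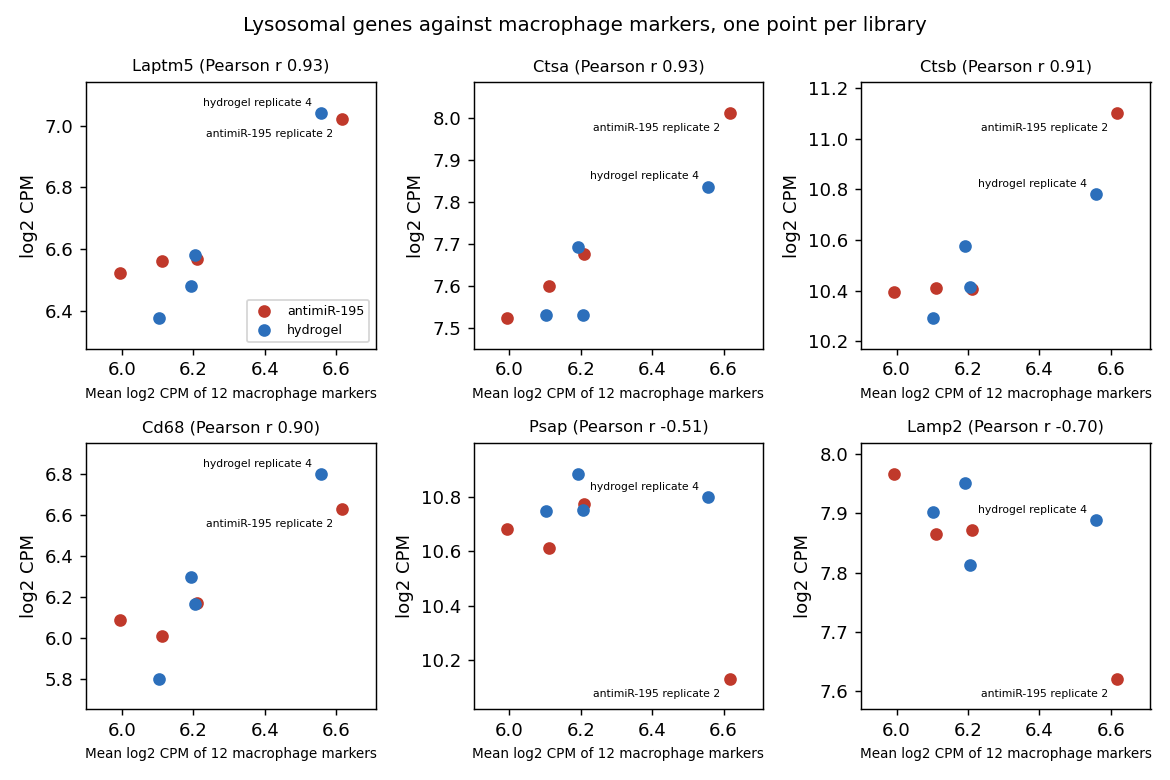
Log2 CPM of 6 of the genes against the mean log2 CPM of 12 macrophage markers, one point per library, antimiR-195 in red and hydrogel in blue. In the panels of Laptm5, Ctsa, Ctsb and Cd68 the libraries antimiR-195 replicate 2 and hydrogel replicate 4 sit apart at the upper right, while Psap and Lamp2 are lowest in antimiR-195 replicate 2.

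Other genes of the lysosome, in 6 lists that share no gene with the 35, gave no calls either. Of the 30 further hydrolases and cofactors, 15 had a higher and 15 a lower mean, with a median log2 fold change of 0.00 and 0 called (0% of all genes were). The smallest p-values were those of Ctsf, a cysteine cathepsin, at -0.23 ± 0.13, Arsb, an arylsulfatase, at -0.23 ± 0.15, and Smpd1, the acid sphingomyelinase, at -0.13 ± 0.11. Smpd1 averaged 181 ± 13.5 CPM with antimiR-195 and 199 ± 12.2 CPM without it (SD, n = 4 each). Among 14 further pump subunits, 6 were higher and 8 lower (median -0.01, 0 called), led by Atp6v0c at -0.25 ± 0.16, Atp6v1e1 at -0.11 ± 0.11 and Atp6ap1 at -0.12 ± 0.14. Without antimiR-195 replicate 2, the lowest library of Atp6v0c and Atp6ap1, their values were -0.11 and -0.0046.

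Of 20 further membrane proteins, 19 were found and 18 tested, with 7 higher and 11 lower (median -0.03, 0 called). Slc15a3, a peptide and histidine transporter of phagocyte lysosomes, had 14.2, 18.6, 13.8 and 9.63 CPM in antimiR-195 replicates 1 to 4, against 9.94, 11.9, 7.02 and 12.3 CPM in hydrogel replicates 1 to 4. AntimiR-195 replicates 1 to 3 lay above every hydrogel library, and replicate 4 below hydrogel replicates 1, 2 and 4. Its log2 fold change of 0.45 ± 0.22 was the largest of these lists and had an unadjusted edgeR p of 0.0705. Tpcn2, a calcium and sodium channel, had 0.29 ± 0.18, and Tmem106b, a membrane protein linked to lysosome size, -0.17 ± 0.18. Without antimiR-195 replicate 2 the values were 0.28 for Slc15a3, 0.27 for Tpcn2 and -0.0090 for Tmem106b.

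The 9 genes of mannose 6-phosphate and other sorting held 5 with a higher and 4 with a lower mean (median 0.00, 0 called), with Gga2 at -0.11 ± 0.11, Nagpa at 0.10 ± 0.12 and Sort1 at -0.11 ± 0.13. Among the 16 genes of the TFEB family and of mTORC1 control at the lysosome, 7 were higher and 9 lower (median -0.02, 0 called). Tfec, a macrophage member of that family, had 0.36 ± 0.28, Rragd, a GTPase that recruits mTORC1, -0.17 ± 0.15, and Lamtor3, a part of its anchor, -0.15 ± 0.13. Without antimiR-195 replicate 2, Tfec had 0.18, Rragd -0.077 and Lamtor3 -0.094, and of the sorting genes Gga2 had -0.070, Nagpa 0.039 and Sort1 -0.056. Of 6 cathepsin inhibitors, only Cst3 and Cstb passed the filter, at 0.15 ± 0.22 and 0.19 ± 0.22. Both turned negative without antimiR-195 replicate 2, at -0.12 and -0.063. Cst3, the secreted inhibitor cystatin C, averaged 1067 ± 361 CPM with antimiR-195 and 962 ± 142 CPM without it (SD, n = 4 each).

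Since the drug targets miR-195, its sequence and its seed matches are shown for the genes that hold one. A seed is the stretch from base 2 to base 8 of a microRNA, which pairs with sites in the 3′ UTR of target mRNAs and lowers their level. Sequences are those of RefSeq on GRCm38.p6, 5′ to 3′, with the seed in capitals. In this table mmu-miR-195a-5p lies at chr11:70235062-70235082 on the plus strand, beside mmu-miR-497a-5p at chr11:70234730-70234751. The relatives printed below it carry the same seed.
mmu-miR-195a-5p: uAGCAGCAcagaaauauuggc
mmu-miR-497a-5p: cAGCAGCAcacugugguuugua
mmu-miR-15a-5p: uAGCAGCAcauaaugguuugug
mmu-miR-15b-5p: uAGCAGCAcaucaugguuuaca
mmu-miR-16-5p: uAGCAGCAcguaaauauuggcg
mmu-miR-322-5p: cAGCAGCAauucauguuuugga

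Matches of at least 7 bases in the longest annotated 3′ UTR (GENCODE M21, GRCm38) occurred in 4 of the 35 genes (11.4%), against 3671 of 12868 genes with a UTR (28.5%). The median UTR of the 35 was 868 bases long, against 1205 over all these genes. The 6 matches are printed with their flanks as DNA of the transcript strand, capitals marking the match. A 7mer-m8 pairs with the whole seed, a 7mer-A1 with all but its last base and has an A opposite base 1 of the microRNA, and an 8mer has both.
Ctsl 7mer-m8: cattcgctgccTGCTGCTgcttgcattgc
Ctsl 7mer-m8: tcgctgcctgcTGCTGCTtgcattgccct
Neu1 7mer-m8: tccatcctggcTGCTGCTgtttgcaagtg
Scarb2 7mer-m8: ggtgtagaataTGCTGCTgagaggacaga
Scarb2 8mer: agcctcccaagTGCTGCTAttacaggcacg
Tfeb 7mer-A1: ccttccccttgGCTGCTAcccccaccctg

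Both Ctsl matches overlap within a repeat (chr13:64359834-64359840 and chr13:64359831-64359837, minus strand), in a UTR of 4761 bases that exceeds the 1971 bases behind its RPKM. The Neu1 match lies at chr17:34935450-34935456 on the plus strand. Those of Scarb2 lie at chr5:92443431-92443437 and chr5:92442153-92442160 on the minus strand, in a UTR of 2932 bases, also longer than the 2110 bases behind its RPKM. That of Tfeb lies at chr17:47791943-47791949 on the plus strand. The log2 fold changes of the 4 genes were -0.14 for Ctsl, -0.11 for Neu1, -0.01 for Scarb2 and 0.00 for Tfeb. Their median was -0.06, against 0.01 for the 31 genes without a match. Over all genes, the median was -0.01 with a match, against 0.01 without.

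Promoters of some of the genes carry a letter pattern that TFEB and TFE3 are known to bind, the palindrome TCACGTGA. It holds the shorter patterns TCACGTG and CACGTG within it. Promoters were taken from RefSeq (GRCm38.p6), 250 bases before to 50 after the start, in which 29 of the 35 genes were matched by symbol, and both strands were searched. TCACGTGA was present for 3 of the 29 (10.3%), Ctsa, Ctsd and Mcoln1, against 1.12% of all genes in the table. TCACGTG was present for 7 (24.1%, against 4.29%), those 3 and Gaa, Glb1, Lamp1 and Lgmn, and CACGTG for 8 (27.6%, against 8.09%), with Ctsl added. A match describes the letters and is not a site shown to be bound. The promoters of Ctsa (chr2:164833523-164833822, plus strand), Ctsd (chr7:142387778-142388077, minus strand) and Mcoln1 (chr8:3500269-3500568, plus strand) are printed because they hold the full palindrome, in capitals.
Ctsa promoter: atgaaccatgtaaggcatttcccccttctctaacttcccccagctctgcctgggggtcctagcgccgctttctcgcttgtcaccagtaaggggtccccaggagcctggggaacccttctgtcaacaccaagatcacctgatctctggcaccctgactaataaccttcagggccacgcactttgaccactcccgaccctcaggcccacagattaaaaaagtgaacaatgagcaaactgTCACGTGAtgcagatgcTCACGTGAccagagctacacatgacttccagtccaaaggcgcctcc
Ctsd promoter: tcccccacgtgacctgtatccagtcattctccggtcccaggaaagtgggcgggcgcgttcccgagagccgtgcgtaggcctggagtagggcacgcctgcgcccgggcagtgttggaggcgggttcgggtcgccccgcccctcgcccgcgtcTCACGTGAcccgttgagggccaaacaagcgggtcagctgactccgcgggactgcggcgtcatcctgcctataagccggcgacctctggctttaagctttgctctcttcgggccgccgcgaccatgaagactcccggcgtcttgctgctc
Mcoln1 promoter: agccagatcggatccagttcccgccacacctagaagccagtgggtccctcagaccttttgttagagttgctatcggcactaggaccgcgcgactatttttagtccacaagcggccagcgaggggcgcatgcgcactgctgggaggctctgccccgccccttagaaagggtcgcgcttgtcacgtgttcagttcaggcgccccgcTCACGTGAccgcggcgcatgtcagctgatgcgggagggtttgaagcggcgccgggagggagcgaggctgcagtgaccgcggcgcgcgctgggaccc

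The Lamp1 promoter (chr8:13158911-13159210, plus strand) is printed because it holds 4 matches to TCACGTG, in capitals, read on either strand. The windows of Gaa, Glb1 and Lgmn hold 1 match each.
Lamp1 promoter: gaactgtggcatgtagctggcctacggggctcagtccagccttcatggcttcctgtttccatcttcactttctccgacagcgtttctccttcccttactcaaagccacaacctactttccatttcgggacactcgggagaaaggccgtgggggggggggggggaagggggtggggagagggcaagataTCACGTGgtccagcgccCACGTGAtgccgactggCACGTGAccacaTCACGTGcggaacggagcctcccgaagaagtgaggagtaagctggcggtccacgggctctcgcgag
Gaa window: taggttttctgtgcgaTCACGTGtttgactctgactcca
Glb1 window: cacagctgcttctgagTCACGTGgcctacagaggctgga
Lgmn window: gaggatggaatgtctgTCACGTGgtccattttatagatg

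The 7 genes with TCACGTG had fold changes of both signs. Their log2 fold changes were 0.06 for Ctsa, 0.00 for Ctsd, -0.09 for Gaa, 0.06 for Glb1, -0.13 for Lamp1, 0.04 for Lgmn and -0.02 for Mcoln1, and none passed the test. In antimiR-195 replicate 2, Ctsa, Ctsd, Glb1 and Lgmn were at their highest and Lamp1 at its lowest.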

How the data were processed

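The authors deposited whole-number counts per Ensembl gene for each of 8 libraries, and the same counts as 1 table of the series (0 differing cells). They also deposited RPKM values, which with the counts imply 1 length per gene in all libraries. TRIzol extraction and a stranded TruSeq kit for mRNA were used, per the labels' protocols, and STAR, HTSeq, DESeq and GRCm38, per the submitters' processing notes. Versions, annotation release and strand setting: not given in the sources used here. Lines of the count files that hold no gene were dropped. Reads outside genes (6.38% to 7.55%) and ambiguous reads (0.772% to 1.05%) are shares of the gene counts plus both these classes. Reads aligned to several places (42.1% to 47.8%) are a share of the sum over all lines.

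Groups came from the drug field of the labels. Replicates were numbered in accession order and pair nothing. Genes passing filterByExpr, 13972 in all, were scaled with TMM (factors 0.953 to 1.04) and tested with edgeR 4.0.16 (quasi-likelihood, two-sided, R 4.3.3) over all genes, with Benjamini-Hochberg adjustment and a threshold of 0.05; the biological coefficient of variation was 19.1%. CPM values were computed from the counts and TMM factors. Correlations used log2 CPM (prior count 2) and exact permutation of 40320 pairings (720 for 6 libraries), 35 relations in all, adjusted over all 13960 genes that are no marker. Alternatives used DESeq2 1.42.0, limma 3.58.1 on counts and on the deposited RPKM, other scaling, no filter, and each library left out. The tests were tried on simulated data first.

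Gene names came from GENCODE M21. Of 190 genes in 20 lists, 1 was not found by symbol. The 35 genes and the lists were chosen with earlier results of these data known, so no test was run on a list. Values in each library are given for the 8 genes with the smallest p and for Cd68, Lamp1, Lamp2, Ctsb, Ctsd, Ctss, Ctsk, Lgmn, Grn, Gaa, Tfeb, Tfe3 and Atp6v0d2, and of each further list the 3 genes with the smallest p are named. Slc15a3 is also given in each library, and Npc1, Npc2 and the genes with letter matches were picked out after their values were seen.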

Additional observations from a re-analysis of the deposited data

Results flagged for a closer look

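Of 70 groups of 4 libraries (35 genes in each of 2 groups), 10 held a library set far from the other 3 by Dixon's test, where chance flags about 1 in 20. That is 14.3% of the groups, against 5.48% over all genes tested. In 7 of the 10 the library was antimiR-195 replicate 2 at the top of its group, so 7 of the 35 genes, against 3.2% of all genes; it was set apart at the bottom for 0 of the 35, against 1.75% of all genes. The 7 were Ctsb at 2197 CPM, Ctsd at 2420.1 CPM, Ctsk at 22.2 CPM and Glb1 at 38.1 CPM, and also Hexa at 219 CPM, Laptm5 at 129.9 CPM and Grn at 428 CPM. The remaining 3 were Man2b1, lowest at 61.1 CPM in antimiR-195 replicate 1, Ctsd, lowest at 1639 CPM in hydrogel replicate 2, and Lamp1, highest at 689 CPM in hydrogel replicate 1. In antimiR-195 replicate 2 the macrophage markers summed to 2661 CPM, against 1491 to 1802 CPM in the other antimiR-195 libraries, and the share of alignments to several places was 47.8%, against 42.1% to 43.9%. The part of either in these values was not tested.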

How the results depend on the processing

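The count of 0 genes called held in every alternative run: DESeq2's test, limma-voom with quality weights, limma-trend on RPKM, other scaling, no filter and each library left out. At an unadjusted p under 0.05, edgeR gave 178 genes, DESeq2 193, limma-voom 333 and limma-trend 180, and edgeR without the filter 428 of 22669. With 1 library left out, edgeR gave 104 without hydrogel replicate 3 to 352 without antimiR-195 replicate 3, and 590 with antimiR-195 replicate 2 and hydrogel replicate 4 both out. Across these fits the smallest adjusted p of a named gene was 0.892. The median log2 fold change of the 35 ranged from -0.10 without antimiR-195 replicate 2 to 0.07 without hydrogel replicate 4, and the number with a higher mean from 6 to 24; the voom weights gave -0.093 and 6, and RPKM 0.018 and 23. Scaling by DESeq2 or upper-quartile factors turned no sign. Signs of small fold changes turned as follows, and the cause was not tested. With voom quality weights, log2 fold changes were -0.016 for Ctsa, -0.10 for Ctsb, -0.11 for Ctsd, -0.16 for Ctsh, -0.095 for Ctsz and -0.14 for Lgmn. That fit also gave -0.022 for Glb1, -0.17 for Hexa, -0.093 for Npc2, -0.14 for Cd63, -0.040 for Laptm5 and 0.029 for Scarb2. It further gave -0.068 for Atp6v1h, -0.099 for Grn, -0.087 for Cst3 and -0.092 for Cstb. With antimiR-195 replicate 2 and hydrogel replicate 4 both left out they were -0.034 for Ctsb, -0.14 for Ctsd, -0.15 for Ctsh, -0.055 for Ctsz, -0.056 for Lgmn and 0.012 for Tpp1. That fit also gave -0.0099 for Glb1, -0.17 for Hexa, 0.049 for Man2b1, -0.071 for Npc2, -0.17 for Cd63 and 0.0077 for Lamp2. It further gave 0.013 for Atp6v0a1, -0.025 for Atp6v1h, -0.0097 for Grn, -0.089 for Tfeb, 0.015 for Atp6ap1 and -0.18 for Cst3. On log2(RPKM + 0.1), values were 0.020 for Gusb, 0.017 for Man2b1, 0.0077 for Mcoln1, 0.011 for Scarb2 and 0.0053 for Atp6v0a1. On log2(RPKM + 1), values were 0.018 for Gusb, 0.016 for Man2b1, 0.0069 for Mcoln1, 0.011 for Scarb2 and 0.0050 for Atp6v0a1. Without the filter, values were -0.0027 for Ctsd and -0.0048 for Tfeb. Leaving out 1 library at a time, the fold change changed sign for some genes and covered -0.062 to 0.12 for Ctsa, -0.13 to 0.18 for Ctsb, -0.12 to 0.058 for Ctsc, -0.16 to 0.068 for Ctsd and -0.19 to 0.11 for Ctsh. Further ranges were -0.21 to 0.10 for Ctss, -0.13 to 0.36 for Ctsz, -0.13 to 0.13 for Lgmn, -0.071 to 0.11 for Glb1 and -0.15 to 0.10 for Gusb. Among the others the range was -0.20 to 0.14 for Hexa, -0.096 to 0.074 for Man2b1, -0.024 to 0.16 for Lipa, -0.044 to 0.080 for Npc1 and -0.12 to 0.21 for Npc2. It was -0.11 to 0.29 for Cd63, -0.23 to 0.14 for Cd68, -0.099 to 0.0029 for Lamp2, -0.10 to 0.20 for Laptm5 and -0.060 to 0.017 for Scarb2. Next came -0.068 to 0.023 for Atp6v0a1, -0.30 to 0.13 for Atp6v0d2, -0.025 to 0.19 for Atp6v1h, -0.13 to 0.19 for Grn and -0.028 to 0.056 for Tfe3. The last were -0.077 to 0.14 for Tfeb, -0.12 to 0.27 for Cst3 and -0.063 to 0.31 for Cstb. Ranges without a change of sign were 0.026 to 0.31 for Ctsk, -0.17 to -0.046 for Gaa, -0.31 to -0.12 for Psap, -0.33 to -0.15 for Arsb, -0.18 to -0.0046 for Atp6ap1, 0.28 to 0.59 for Slc15a3, -0.17 to -0.046 for Gga2 and -0.21 to -0.075 for Lamtor3. Also keeping their sign were ranges of -0.21 to -0.094 for Ctsl, -0.20 to -0.047 for Neu1, -0.16 to -0.10 for Lamp1, -0.33 to -0.13 for Ctsf, -0.35 to -0.11 for Atp6v0c, -0.31 to -0.0090 for Tmem106b, 0.039 to 0.15 for Nagpa and -0.27 to -0.077 for Rragd. The rest were -0.21 to -0.021 for Tpp1, -0.29 to -0.099 for Asah1, -0.051 to -0.0095 for Mcoln1, -0.18 to -0.097 for Smpd1, -0.16 to -0.066 for Atp6v1e1, 0.15 to 0.41 for Tpcn2, -0.21 to -0.028 for Sort1 and 0.18 to 0.52 for Tfec. Counted with p-values adjusted over the 35 alone, which is no independent evidence, 14 genes correlated with the macrophage markers (exact permutation). That count was 0 with p-values adjusted over all genes (added after seeing the data), 0 by Spearman's rho, 0 with values centred on group means and 0 without the 2 libraries farthest from the median, and 0 to 15 with 1 library left out. It was 0 without antimiR-195 replicate 2, 0 without hydrogel replicate 4 and 8 without hydrogel replicate 1. For the 14 genes r itself was 0.80 to 0.96 when centred (adjusted p over the 35, 0.055 at the least, from permutations within groups), 0.60 to 0.97 with 1 library left out and 0.17 to 0.59 without those 2 libraries. For Psap the correlation was 0.12 by Spearman's rho, 0.58 without those 2 libraries, and -0.79 to 0.47 with 1 left out. No paired analysis was possible because replicate numbers follow accession order and pair no libraries. Depth limits Atp6v0d2 most, at 1.46 to 3.88 CPM.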
